A study of Mus musculus with 8 samples.

Results

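The epidermal growth factor (EGF) and platelet-derived growth factor (PDGF) ligands and receptors were followed in LB-22 cells, an immortalized line from mouse embryonic kidney, after an siRNA against Wt1. The 10 genes were taken by name, by a choice made with earlier results of these data known. They are the EGF family ligand genes Areg, Ereg and Hbegf, the EGF receptor gene Egfr, the PDGF ligand genes Pdgfa, Pdgfb and Pdgfc, the PDGF receptor genes Pdgfra and Pdgfrb, and Csf1r, whose receptor belongs to the same structural class as the PDGF receptors. Several of them have been reported as targets of WT1, a transcription factor with zinc fingers that acts in kidney development. The arrays hold 45037 probe sets besides their controls. Of these, 24 carried the symbol of 1 of these genes, and they covered 9 of the 10 genes and 9 of 18193 named genes. In the annotation used here, no probe set carried the symbol or gene ID of Areg, alone or beside those of other genes, and Areg was not analysed here.

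Both groups were LB-22 cells, 1 line with no further genotype named, and both were profiled on Affymetrix Mouse 430_2 arrays with 1 array per sample and 4 arrays per group. One group received scrambled control siRNA and the other an siRNA against Wt1, each at 25 pmol for 6 h with a lipid reagent, and RNA was taken after 48 h. Before transfection all cells had been expanded at 33 °C with interferon gamma, and they were kept at 37 °C without interferon afterwards. The medium held fetal bovine serum, insulin, hydrocortisone and basic FGF, and neither EGF nor PDGF is named among its additives. The labels do not say that replicates were separate cultures. A p-value here thus measures the spread between these arrays alone, which may be technical. They do not say either whether more than 1 siRNA sequence against Wt1 was used, so effects of lower Wt1 and effects of the siRNA on other transcripts cannot be told apart.

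EGF family ligands are made as membrane-anchored precursors, and cell surface proteases release the soluble factor. The ligands bind EGFR and its ERBB relatives, which dimerize, phosphorylate their own tails and pass the signal through adaptor proteins to the ERK and PI3 kinase routes. PDGF chains form dimers that bring together the receptors PDGFRα and PDGFRβ. In the kidney, the PDGF pathway is known for the mesenchyme, the mesangium and pericytes, and EGFR ligands for growth and repair of the tubule epithelium. WT1 binds GC-rich elements close to those of the EGR factors and also repeats of TCC, and the promoters of EGFR and PDGFA are among those it has been reported to regulate.

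All arrays had been scaled to a common trimmed mean, and precision is limited by their number. The correlation of log2 signals was 0.966 to 0.985 within groups and 0.937 to 0.967 across them. The single Wt1 probe set fell to 20.5% of control, or -2.28 ± 0.11 on the log2 scale (SE; limma adjusted p = 9.17e-07). Of 11 kidney mesenchyme marker genes matched, 6 (Wt1, Osr1, Six2, Eya1, Hoxa11 and Tbx18) had a probe set above the bacterial control probe sets on all 8 arrays, and Cited1, Foxd1 and Gdnf had none above them on any array. On 2 arrays the median correlation with their own group was lowest, control siRNA array 3 at 0.968 and Wt1 siRNA array 4 at 0.971, against 0.981 to 0.985 on the other 6 arrays. Control siRNA array 3 also had the lowest signals of all 3 transferrin receptor control probe sets. They read 39.9 at the 5′ end of that transcript, 82.3 in the middle and 418.5 at the 3′ end, against 251.3 to 455.8, 214.1 to 308 and 1054.6 to 1546.2 on the other arrays. On Wt1 siRNA array 4 the 18S ribosomal RNA control was at 63.3 against 268.6 to 573.3, and the 3′ Gapdh control was at 85099 against 45828.4 to 62526.8. These were the arrays whose omission was tried together as an alternative chosen after seeing the data.

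RefSeq promoter windows were given for 5 of the 10 genes, and the 250 bases before each annotated start were searched for 4 words of 9 bases on both strands. The words were the EGR-like GCGGGGGCG, GCGTGGGCG and GCGTGGGAG and the repeat TCCTCCTCC. Over 32851 windows of that length the shares holding each word were 2.57%, 0.536%, 0.405% and 2.45%, in the same order. None of the 6 member windows held an EGR-like word, which says only that these letters are not in these windows. The repeat was found in 2 windows, on the strand of the gene in both. The Egfr window at chr11:16751953-16752202 (plus strand) held 1 match, 17 to 9 bases before the start. The Pdgfa window at chr5:138994945-138995194 (minus strand) held 3 overlapping matches that cover 15 bases, 26 to 12 bases before the start, and the other Pdgfa window held none. The Pdgfc window at chr3:81036166-81036415 (plus strand), shown for a gene whose signal fell, had no match, nor had those of Areg and Pdgfra. The windows are printed 5′ to 3′ along the gene from RefSeq on GRCm38.p6 because they are the stretches in which WT1-type words were sought, and capitals mark the repeat. A match is a description of the letters, and binding was not measured here.
Egfr: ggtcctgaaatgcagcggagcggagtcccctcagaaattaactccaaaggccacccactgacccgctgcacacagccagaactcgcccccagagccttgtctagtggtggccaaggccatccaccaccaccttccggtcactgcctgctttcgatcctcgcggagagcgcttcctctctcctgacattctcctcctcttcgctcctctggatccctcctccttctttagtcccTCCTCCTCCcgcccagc
Pdgfa: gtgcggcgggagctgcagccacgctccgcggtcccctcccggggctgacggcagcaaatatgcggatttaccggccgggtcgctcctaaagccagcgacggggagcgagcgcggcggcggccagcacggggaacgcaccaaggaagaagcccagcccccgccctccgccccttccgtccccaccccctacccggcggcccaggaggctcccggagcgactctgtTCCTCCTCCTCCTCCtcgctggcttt
Pdgfc: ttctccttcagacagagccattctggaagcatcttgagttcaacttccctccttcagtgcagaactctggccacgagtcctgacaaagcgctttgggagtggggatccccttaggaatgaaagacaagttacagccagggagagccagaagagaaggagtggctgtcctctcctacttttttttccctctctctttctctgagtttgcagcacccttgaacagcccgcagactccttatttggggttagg

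After Wt1 siRNA, 1 of the 2 Hbegf probe sets was higher, and signals of Ereg, Egfr, Pdgfc and Csf1r were lower on at least 1 probe set each. The largest fall was to 59.2% of control, for a Csf1r probe set, and the rise of Hbegf was 1.55-fold. No call was made for Pdgfa, Pdgfb or Pdgfrb, and the 3 Pdgfra probe sets were too dim to be tested. Of the 24 probe sets, 18 from 8 genes lay in the brighter part of the array, which was tested (mean signal of at least 291), and 6 lay below it. Differences are log2 signal after Wt1 siRNA minus control siRNA, tested with limma over all 22518 tested probe sets, and a probe set was called at a Benjamini-Hochberg adjusted p under 0.05.

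Among the 18 tested probe sets 7 were called (38.9%), against 23.1% of all tested probe sets. One was higher and 6 were lower, where 10.8% of all tested probe sets were higher and 12.3% lower. With median centring 1 member probe set was higher and 3 were lower, beside 2459 higher and 1369 lower of all tested probe sets, where the reported scaling gave 2430 and 2764. The groups did not overlap in the same number, 7 of 18 (38.9%), against 27% of all tested probe sets. The median difference of the tested member probe sets was -0.19 and that of all tested probe sets -0.01, and the median sizes without sign were 0.29 and 0.23. None of the 7 reached 2-fold, as 570 of the 5194 called among all 22518 tested probe sets did. With only 7 called, this is no result about the members. With the brightest probe set of each gene, 6 members were bright enough to be tested and 5 were called, against 37.3% of genes, and that rule takes for Hbegf, Egfr and Csf1r the probe set with the clearest difference. These counts are descriptions, since probe sets of 1 gene share their transcripts and the genes were chosen with results of these data known.

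**Figure D1:**
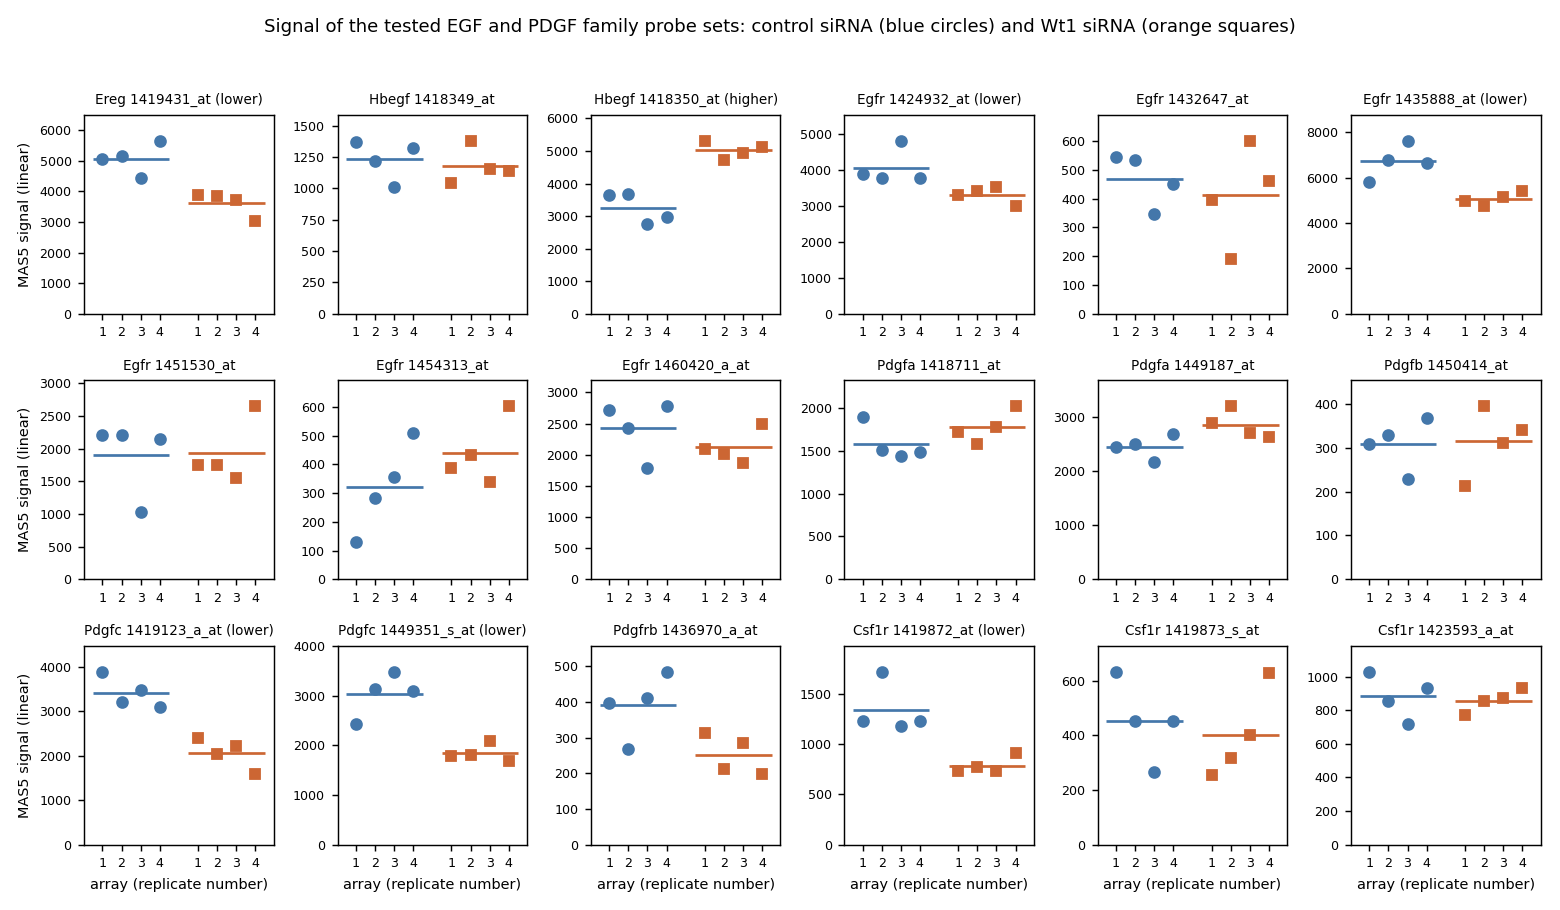
Deposited signal (linear axis from 0) of the 18 tested probe sets on each array, control siRNA as blue circles and Wt1 siRNA as orange squares, with the group means as lines. In the 7 panels marked higher or lower, such as Hbegf 1418350_at and both Pdgfc probe sets, no array of one group lies within the range of the other.

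Ereg encodes epiregulin, a ligand of EGFR and ERBB4. Its only probe set, 1419431_at, had control signals of 5042, 5139, 4432 and 5646 (replicates 1 to 4), and after Wt1 siRNA it read 3889, 3861, 3718 and 3039.6 in the same order. All 4 Wt1 siRNA arrays lay below all 4 control arrays. Means were 5065 ± 498 and 3627 ± 399 (SD, n = 4 in each group). Ereg fell to 71.5% of control, or -0.48 ± 0.10 on the log2 scale (SE; limma adjusted p = 0.00563). With median centring of every array, which moved the median of all tested probe sets by 0.108, the difference was -0.38 and was no longer called (adjusted p = 0.0851). Ereg lies next to Areg and Epgn in the mouse genome, in a row of EGF ligand genes that also holds Btc, which encodes betacellulin. The brighter Btc probe set was at 0.17 ± 0.10 and not called (limma adjusted p = 0.275). Its groups did not overlap, at 1139.6 to 1275 on control arrays and 1279.8 to 1374.7 on Wt1 siRNA arrays. The Epgn probe set was too dim to be tested, so Btc was the only other ligand gene of that row with a test.

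Hbegf encodes heparin-binding EGF-like growth factor, which stays on the cell surface until it is shed. Its probe set 1418350_at read 3661, 3669, 2766 and 2965 on control arrays and 5314, 4709.5, 4943 and 5122 on Wt1 siRNA arrays. Every Wt1 siRNA array was above every control array, with group means of 3265 ± 469 and 5022 ± 258 (SD, n = 4 each). The rise was 1.55-fold, or 0.63 ± 0.10 on the log2 scale (SE; limma adjusted p = 0.00124). It was the only one of the 18 tested member probe sets called higher, and the call was kept in all 18 alternative settings.

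The second Hbegf probe set, 1418349_at, read 1369.8, 1222, 1013 and 1326 on control arrays and 1047, 1379.9, 1151 and 1139 on Wt1 siRNA arrays. The groups overlapped, and the difference was -0.06 ± 0.14 (SE; limma adjusted p = 0.785) with a 95% interval of -0.36 to 0.24. That interval does not reach the difference of 1418350_at. Within each array the log2 ratio of 1418350_at to 1418349_at was 1.16 to 1.59 on control arrays and 1.77 to 2.34 on Wt1 siRNA arrays. The ratio was 0.69 higher after Wt1 siRNA (exact two-sided permutation p = 0.0286, the lowest value possible with 4 arrays a group, and 0.143 with Benjamini-Hochberg adjustment over 10 such pairs). The rise of Hbegf therefore rests on 1 of its 2 probe sets, and which stretches of the transcript they match was not analysed here.

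Of the PDGF chains, Pdgfc was called lower, while Pdgfa and Pdgfb were not called, and the difference between the chains was not tested. Pdgfc encodes PDGF-C, which is secreted in a latent form and activated by proteolysis before it binds PDGFRα. Probe set 1419123_a_at read 3892, 3214, 3473 and 3101 on control arrays and 2408, 2049, 2226 and 1591 on Wt1 siRNA arrays. Probe set 1449351_s_at read 2433, 3143, 3491 and 3104 and 1798, 1811, 2092 and 1682. In both, all Wt1 siRNA arrays lay below all control arrays. The suffix _s_at of the second says that its probes may also match other transcripts. The falls were to 60% and 61% of control, with log2 differences of -0.74 ± 0.13 and -0.71 ± 0.12 (SE; limma adjusted p = 0.0019 and 0.00142). Both calls were kept in every alternative in which they were tested, 18 and 17, so that Pdgfc is the one gene of the 10 with more than 1 probe set of which all were called.

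Pdgfa and Pdgfb encode the PDGF-A and PDGF-B chains, which need no such activation. For Pdgfa, probe set 1418711_at read 1892, 1515, 1435 and 1481 on control arrays and 1719, 1576, 1778 and 2021 on Wt1 siRNA arrays. Probe set 1449187_at read 2449, 2495, 2165 and 2682 and 2889, 3196, 2698 and 2627. The groups overlapped in both. The log2 differences were 0.17 ± 0.12 and 0.22 ± 0.10 (SE; limma adjusted p = 0.346 and 0.128), with 95% intervals of -0.10 to 0.43 and 0.0067 to 0.43. A rise above 0.43 or a fall below -0.10 is outside both intervals. Neither difference passed the test, and whether the repeat in the Pdgfa window printed above bears on them was not tested.

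Pdgfb was dim. Probe set 1450414_at ranged from 229 to 368 on control arrays and from 213 to 395 on Wt1 siRNA arrays, with a difference of 0.02 ± 0.26 (SE; limma adjusted p = 0.976) and an interval of -0.54 to 0.57. The other probe set, 1450413_at, was too dim to be tested, at 168 to 304 and 135 to 271. The highest signal among 27 control probe sets for transcripts of a bacterium, which no mouse cell makes, was 227.2. On all 8 arrays 1450414_at lay above the highest of these control probe sets on its own array, and 1450413_at did so on 6 of 8.

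**Figure D2:**
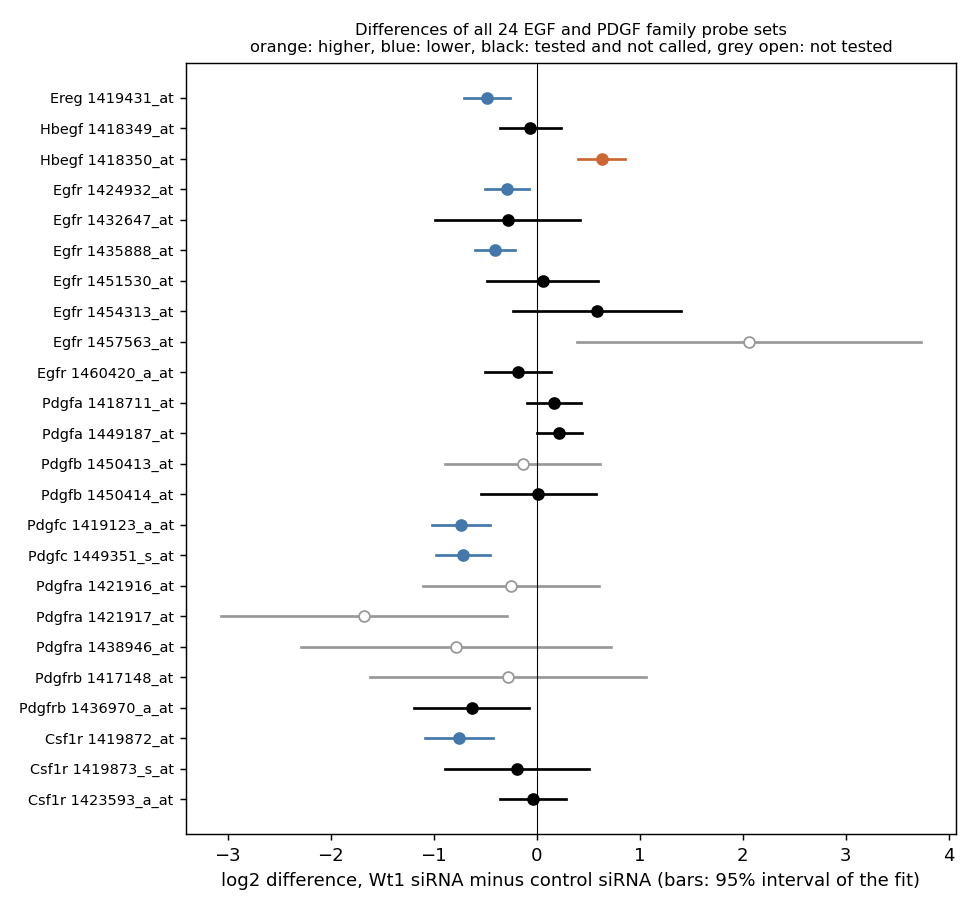
Log2 difference (Wt1 siRNA minus control siRNA, horizontal axis) of all 24 probe sets, with the 95% interval of the limma fit as bars, and for the 6 untested probe sets those of a fit over all probe sets. The called probe sets (blue lower, orange higher) lie at -0.76 to 0.63, and the open grey points of dim probe sets mostly have wide intervals, such as -3.06 to -0.29 for Pdgfra 1421917_at.

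Egfr, the receptor of EGF, amphiregulin, epiregulin and HB-EGF, was represented by 7 probe sets, of which 6 were tested. Probe set 1435888_at read 5820.2, 6796, 7628 and 6649 on control arrays and 4958, 4736, 5171 and 5409 on Wt1 siRNA arrays. No Wt1 siRNA array reached the lowest control array. Its signal fell to 75.6% of control, or -0.40 ± 0.09 on the log2 scale (SE; limma adjusted p = 0.00721). Median centring gave -0.29 (adjusted p = 0.182), the one setting of 18 in which the call was lost.

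Egfr probe set 1424932_at read 3888, 3784, 4811 and 3780.4 on control arrays and 3296, 3410.0, 3529 and 2997 on Wt1 siRNA arrays. The groups did not overlap, though control siRNA array 3 was far above the other 3 control arrays. The difference of -0.29 ± 0.10 (SE; 81.6% of control) only just passed (limma adjusted p = 0.0496). Leaving out any 1 of the 8 arrays ended the call (adjusted p = 0.0599 to 0.101), and without control siRNA array 3 the difference was -0.21 (adjusted p = 0.0821). Over 17 alternatives the call was kept in 4, with adjusted p from 0.0385 to 0.477.

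Probe sets 1460420_a_at and 1451530_at of Egfr were not called. The first read 2718, 2426, 1782 and 2780.0 on control arrays and 2096, 2019.6, 1868 and 2489 on Wt1 siRNA arrays. The second read 2211, 2216, 1023 and 2143 and 1757, 1749.8, 1553 and 2652. In both, control siRNA array 3 was the lowest control array and Wt1 siRNA array 4 the highest Wt1 siRNA array, opposite to the place of control array 3 on 1435888_at and 1424932_at, where it was the highest. The differences were -0.18 ± 0.15 and 0.06 ± 0.25 (SE; limma adjusted p = 0.403 and 0.894). Without both of these arrays they were -0.40 and -0.38 (adjusted p = 0.00797 and 0.0116), in which case both were called lower and 1424932_at was not (-0.16, adjusted p = 0.108). Without control siRNA array 3 alone 1451530_at was at -0.22 (adjusted p = 0.348), and without Wt1 siRNA array 4 alone at -0.10 (adjusted p = 0.795). Whether these values move with the low transferrin receptor controls on control siRNA array 3 was not tested.

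The remaining Egfr probe sets were dimmer. Probe set 1432647_at ranged from 347 to 543 on control arrays and from 190.2 to 601 on Wt1 siRNA arrays, with a difference of -0.28 ± 0.32 (SE; limma adjusted p = 0.572). Probe set 1454313_at ranged from 129 to 509 and from 337 to 602 (0.59 ± 0.37, limma adjusted p = 0.283). Both lay above every bacterial control probe set on 7 of 8 arrays. Probe set 1457563_at was not tested and lay at 13.3 to 28 on control arrays and at 17.1 to 162 on Wt1 siRNA arrays, above every control probe set on only 2 arrays. Of 6 tested Egfr probe sets 2 were thus called, both lower, and 1 of those calls hung on each single array.

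**Figure D3:**
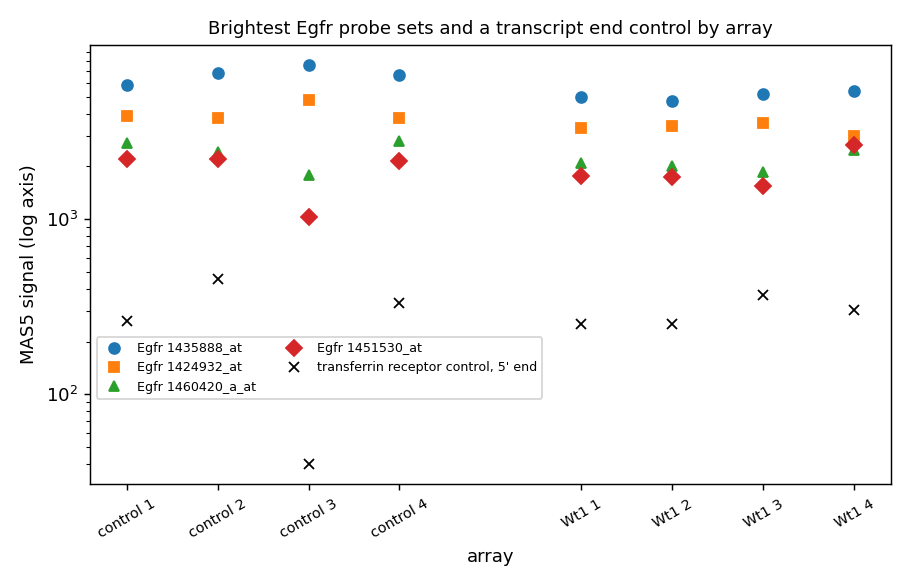
Signal (log axis) of the 4 brightest Egfr probe sets on each array, with the 5′ transferrin receptor control as crosses. On control siRNA array 3 the probe sets 1435888_at and 1424932_at are at their highest, 7628 and 4811, while 1460420_a_at and 1451530_at are at their lowest, 1782 and 1023, and the control is at 39.9.

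PDGFRα and PDGFRβ are the receptors through which PDGF acts on mesenchymal cells. The 3 Pdgfra probe sets were below the tested range. Probe set 1421916_at lay at 162 to 262 on control arrays and 121 to 324 on Wt1 siRNA arrays, and 1438946_at at 80.6 to 211 and 20.7 to 174. Probe set 1421917_at read 43.3, 43.8, 134 and 166 and 27.3, 29.2, 15.6 and 32.5, so that the groups did not overlap, but it was above all control probe sets on only 1 of 8 arrays. In a fit over all 45037 probe sets its difference was -1.67 ± 0.64 (SE; limma adjusted p = 0.14). No level of Pdgfra can therefore be given above background on all arrays, and Kit, its neighbour in the genome and a receptor of the same class, was likewise too dim to be tested.

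For Pdgfrb, probe set 1436970_a_at read 399, 269.6, 412 and 486 on control arrays and 313, 212, 285 and 198 on Wt1 siRNA arrays. The lowest control array lay within the range of the Wt1 siRNA arrays. Probe set 1436970_a_at was above all bacterial control probe sets on 7 of 8 arrays. The difference was -0.63 ± 0.26 (SE; limma adjusted p = 0.1), with a 95% interval of -1.19 to -0.07. Over 16 alternatives the adjusted p was 0.0539 to 0.24 and the difference -0.80 to -0.49. Probe set 1417148_at lay at 31.4 to 94.4 and 22.2 to 59.6, on no array above the control probe sets.

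Csf1r encodes the receptor of colony stimulating factor 1 and interleukin 34 and is best known from macrophages. It lies next to Pdgfrb in the genome. Probe set 1419872_at read 1233, 1719, 1174 and 1225 on control arrays and 734, 768, 728 and 911 on Wt1 siRNA arrays. All Wt1 siRNA arrays lay below all control arrays, and control array 2 stood above the other 3. The signal fell to 59.2% of control, or -0.76 ± 0.15 on the log2 scale (SE; limma adjusted p = 0.00402), and was called in all 17 alternatives, with adjusted p from 0.00125 to 0.0148. Without control siRNA array 2 the call was among those kept.

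The other Csf1r probe sets were not called. Probe set 1423593_a_at read 1029, 856, 717 and 934 on control arrays and 773, 853, 872 and 929 on Wt1 siRNA arrays, a difference of -0.04 ± 0.15 (SE; limma adjusted p = 0.891) with an interval of -0.35 to 0.28. Probe set 1419873_s_at read 634, 453, 267 and 453 and 255, 316, 403 and 629.9 (-0.19 ± 0.32, limma adjusted p = 0.714), and its interval of -0.89 to 0.51 holds the fall seen on 1419872_at. Within arrays the log2 ratio of 1419872_at to 1423593_a_at was 0.26 to 1.01 on control arrays and -0.26 to -0.03 on Wt1 siRNA arrays, lower by 0.72 after Wt1 siRNA (exact two-sided permutation p = 0.0286). Against 1419873_s_at it was lower by 0.57 (exact two-sided permutation p = 0.143). The 10 pairs were each gene's brightest tested probe set with every other tested one. After adjustment over them the smallest permutation p was 0.143, so that none passed 0.05.

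Macrophage, pericyte and mesenchymal markers were read beside the receptors, against the 23.1% of all tested probe sets that were called. Of 15 myeloid marker genes 5 had a probe set above the control probe sets on all arrays, and both probe sets of Ptprc, which marks all leukocytes, were above them on none. Among the 6 tested myeloid genes 1 rose, Cd68, which encodes a lysosomal protein (0.99 ± 0.10, limma adjusted p = 5.16e-05), and 1 fell, Adgre1, which encodes F4/80 (-0.92 ± 0.26, limma adjusted p = 0.0244, and 0.0584 without control siRNA array 2). Of the 6 tested myeloid probe sets 33.3% were called, with a median difference of -0.12. The summed myeloid signal was 5769 to 6668 on control arrays and 6492 to 7212 on Wt1 siRNA arrays, ranges that overlap. The higher sum was carried by Cd68, with means of 1091 and 2164. Of 6 tested perivascular and mesangial genes 1 rose and 2 fell, and 42.9% of their 7 tested probe sets were called, with a median difference of -0.03. The rise was that of Notch3, a receptor gene of pericytes and smooth muscle, on 1 of its 2 tested probe sets (0.48 ± 0.12, limma adjusted p = 0.0112). Its call was kept in all 18 alternatives, which were read at a threshold of 0.05, and would not pass 0.01. The other Notch3 probe set was at 0.65 ± 0.24 (limma adjusted p = 0.0712). The falls were those of the smooth muscle genes Tagln (-1.69 ± 0.08, limma adjusted p = 9.17e-07) and Acta2 (-0.43 ± 0.08, limma adjusted p = 0.00261). The summed signal of this list was 33334.4 to 35911.9 on control arrays and 23355.7 to 27895.8 on Wt1 siRNA arrays, a fall carried by Acta2, with means of 21714 and 16182, and Tagln, with means of 6005 and 1860.3. With median centring Acta2 was at -0.32 and not called (adjusted p = 0.119). Among mesenchymal genes 3 of 6 fell and none rose, and 41.7% of 12 tested probe sets were called, all lower, where 12.3% of all tested probe sets were lower. All these calls were of the collagen genes Col1a1, Col1a2 and Col3a1. Neither Vim nor Fn1, with differences of -0.19 to 0.26, was called. The summed signal of this list was 221868 to 265400 on control arrays and 212257 to 279468 on Wt1 siRNA arrays, ranges that overlap. The list's median difference was -0.18, with Col3a1 at -1.27 ± 0.13 on its most changed probe set. The fall of Col1a2, called on 1 of its 2 probe sets, was lost without control array 1 or 4 or Wt1 siRNA array 1, 2 or 3 (adjusted p = 0.0546 to 0.0718). In these bulk samples fewer cells of a type and less RNA per cell cannot be told apart, and the part of these markers in the differences of Csf1r, Pdgfrb and Pdgfc was not tested.

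Among related ligands and receptors outside the 10 genes, 1 of 7 tested probe sets of further EGF family ligands was called (14.3%), 1 of 2 of the other ERBB receptors (50%) and 4 of 11 of further class III receptor genes and ligands (36.4%). The share over all tested probe sets was 23.1%. Of 5 tested further EGF family ligand genes 1 rose, Tgfa, which encodes transforming growth factor α, and 4 gave no call. Tgfa probe set 1421943_at went from 1269, 1073, 1121 and 1195 to 1516, 1799.8, 1707 and 1590.4, a difference of 0.50 ± 0.11 (SE; limma adjusted p = 0.00603). Its other 2 probe sets gave 0.0043 and 0.09 and were not called. Of 2 tested ERBB genes 1 fell, Erbb3, which encodes a receptor with little kinase activity of its own (-0.48 ± 0.15, limma adjusted p = 0.0387). That call was lost without control array 1, 3 or 4 or Wt1 siRNA array 1, 2 or 4 (adjusted p = 0.0673 to 0.0985), with median centring (-0.37, adjusted p = 0.199) and with the replicate block (adjusted p = 0.0524).

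Csf1, the ligand gene of the CSF1 receptor, fell on 3 of its 4 probe sets. Its probe set 1460220_a_at read 14774, 14316, 11340.1 and 15181 on control arrays and 8781, 8173, 8032 and 8612 on Wt1 siRNA arrays. No array of one group lay within the other. The difference was -0.72 ± 0.09 (SE; limma adjusted p = 0.000268), and the probe set without a call was at -0.62 ± 0.23 (limma adjusted p = 0.0786). Pdgfrl, which encodes a secreted PDGF receptor-like protein, fell by 0.59 (SE 0.16; limma adjusted p = 0.0217), a call that was lost without control array 1 or 4 or Wt1 siRNA array 1 or 2 (adjusted p = 0.0506 to 0.064) and with median centring (adjusted p = 0.0735). The 4 calls among class III receptor genes and ligands were all lower, and the median of their tested probe sets was -0.50 against -0.01 over all tested probe sets. The list counts 4 tested genes, with 2 lower and none higher, and Csf1 gives 4 of its 11 probe sets.

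Genes that release or mature the ligands moved in both directions. Of 13 tested genes 2 rose and 2 fell, and of 24 tested probe sets 25% were called, near the 23.1% of all tested probe sets. Adam15, which encodes a membrane metalloproteinase, rose on 2 of 4 probe sets (0.69 ± 0.13 and 0.62 ± 0.12, limma adjusted p = 0.00309 and 0.00301). Pcsk5, a proprotein convertase gene, fell by 1.38 and 0.84 on its 2 tested probe sets (limma adjusted p = 0.0011 and 0.00169). Rhbdf2 encodes iRhom2, a partner of the protease ADAM17, and rose by 0.40 ± 0.10 (limma adjusted p = 0.0148, and 0.0526 without Wt1 siRNA array 2). Plat encodes tissue plasminogen activator, which can activate PDGF-C, and fell by 0.22 on 1 of its 2 tested probe sets (SE 0.07; limma adjusted p = 0.0355). The Plat call was lost with replicates as a block (adjusted p = 0.0583) and without control array 2 or 4 or Wt1 siRNA array 1, 2 or 3 (adjusted p = 0.0533 to 0.107), and median centring gave -0.11 (adjusted p = 0.578). Adam17 itself, named after its values were seen because it is the main protease known to release HB-EGF and epiregulin, had differences of 0.19, 0.25 and 0.20 and no call (limma adjusted p = 0.566, 0.0522 and 0.175).

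Among 17 genes that restrain or turn over the receptors, 4 rose and 1 fell. The fall was that of Socs3, a cytokine-induced inhibitor of receptor signalling, on all 3 of its probe sets. Socs3 probe set 1455899_x_at went from 4921, 5254, 6267 and 5468 to 2861, 2444, 2219 and 2393, with no overlap, a difference of -1.14 ± 0.10 (SE; limma adjusted p = 2.08e-05). Rnf41 encodes the ubiquitin ligase NRDP1, known for the turnover of ERBB3, and rose on its 3 tested probe sets by 0.93 ± 0.13, 0.69 ± 0.09 and 0.68 ± 0.19 (limma adjusted p = 0.000534, 0.000196 and 0.0232). The third of these was not called without control array 1 or 2 or Wt1 siRNA array 2 or 3 (adjusted p = 0.0503 to 0.0723). Cbl, the ubiquitin ligase gene of activated EGFR, and Hgs, an endosomal sorting gene, passed with 0.48 ± 0.15 and 0.31 ± 0.10 (limma adjusted p = 0.0407 and 0.0383). The other 2 of the 3 tested Cbl probe sets were not called, at 0.13 ± 0.14 and 0.39 ± 0.29 (limma adjusted p = 0.538 and 0.362). Cbl kept its call without control array 2 and lost it without any other array (adjusted p = 0.0527 to 0.116) and with the replicate block (adjusted p = 0.0595). Hgs lost it without control array 2, 3 or 4 or Wt1 siRNA array 1, 2 or 4 (adjusted p = 0.0578 to 0.0969). Over the 40 tested probe sets 22.5% were called, near the share of all tested probe sets, and the median difference was 0.02.

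Of 25 tested adaptor and proximal effector genes 5 rose and 4 fell, and 16.1% of 62 probe sets were called, below the 23.1% of all tested probe sets, with a median of 0.08. Src, the kinase gene, rose on 2 probe sets (0.65 ± 0.15, limma adjusted p = 0.00919, and 0.92 ± 0.29, adjusted p = 0.0386). On 1423240_at the Wt1 siRNA arrays read 2496, 2092, 2369 and 6564, so that array 4 stood far above the others, and without it the difference was 0.55 (adjusted p = 0.00602). The 1423240_at call was lost without any 1 control array or without Wt1 siRNA array 1 (adjusted p = 0.0504 to 0.0903). Shc1, an adaptor gene of both receptor families, rose by 0.52 ± 0.13 on 1 of its 2 probe sets (limma adjusted p = 0.0154, and 0.0506 without control siRNA array 4), and the other was at 0.53 ± 0.24 (limma adjusted p = 0.137). Stat5b and Irs1, which encode a signal-dependent transcription factor and an insulin receptor substrate, fell by 0.75 and 0.52 (limma adjusted p = 0.00144 and 0.000619). The fall of Stat5b rests on 1 of its 2 probe sets, and the other was at 0.09 ± 0.33, with overlapping groups (limma adjusted p = 0.885).

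Genes of heparan sulfate carriers and of membrane partners of HB-EGF had the highest share of calls among the 7 pathway lists. Of 8 tested genes 6 rose and 2 fell, and 68.4% of 19 probe sets were called, 10 higher and 3 lower, against 23.1% of all tested probe sets. The median difference was 0.41, and the summed signal was 100924 to 111102 on control arrays and 129481 to 141073 on Wt1 siRNA arrays. Sdc1, which encodes the cell surface proteoglycan syndecan-1, rose on all 4 probe sets, from 2652, 2108, 2753 and 2079.5 to 4985, 4605, 4461 and 4067 on 1415944_at (0.93 ± 0.11, limma adjusted p = 0.000168). Cd9, a tetraspanin gene whose product binds membrane-anchored HB-EGF, read 8295, 8811, 7966 and 9234 on control arrays and 13251, 12961, 14107 and 12867 on Wt1 siRNA arrays (0.63 ± 0.07, limma adjusted p = 9.03e-05). Neither gene's groups overlapped on these probe sets, and Sdc1 gives 4 of the 10 higher probe sets of the list. Sdc4, another syndecan gene, fell on both of its probe sets (-0.82 ± 0.13 and -0.48 ± 0.16, limma adjusted p = 0.000822 and 0.0462). The second Sdc4 call was lost without control array 1, 2 or 3 or Wt1 siRNA array 1, 2 or 4 (adjusted p = 0.0552 to 0.117) and with median centring (-0.37, adjusted p = 0.223). Gpc6, a glypican gene, rose on 1 of its 2 tested probe sets (0.54 ± 0.17, limma adjusted p = 0.035), a call kept without control array 2 and lost without any other array (adjusted p = 0.0525 to 0.085) and with the replicate block (adjusted p = 0.0696). With median centring 10 probe sets were higher and 1 lower, and without control array 3 and Wt1 siRNA array 4 the counts were again 10 and 3.

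**Figure D4:**
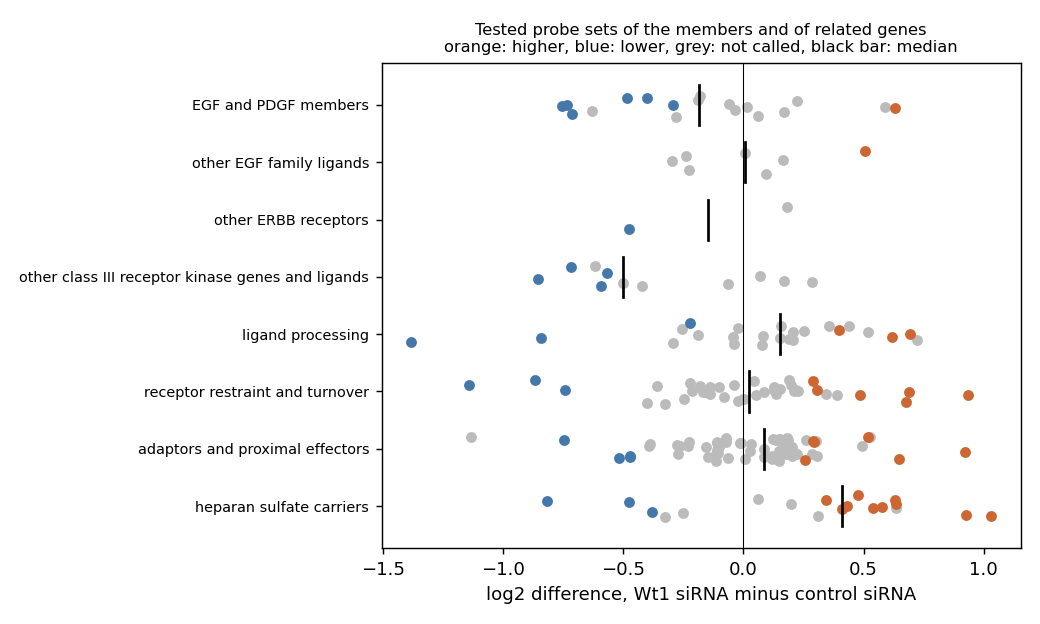
Log2 difference (Wt1 siRNA minus control siRNA, horizontal axis) of every tested probe set of the members and of 7 related gene lists, orange where called higher, blue where called lower and grey where not called, with a black bar at the median. The medians run from -0.50 for the class III receptor genes and ligands to 0.41 for the heparan sulfate carriers, and that of the members is -0.19.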

How the data were processed

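The deposited values were 1 linear intensity per probe set and array. Per the submitters' processing notes the authors used MAS5 (version not given in the sources used here), which weighs perfect match against mismatch probes. There were 45101 probe sets, 64 of them array controls, and the trimmed mean (2% left out at each end) was 1500.01 on every array. Groups and replicate numbers came from the titles. Probe sets were named by the platform annotation, with symbols updated through Entrez gene IDs to RefSeq (34741 of 34945 with 1 symbol), and the 932 with several symbols and 9160 unnamed here entered the fit but were not named. The logarithm was taken without further scaling. A share of 0.5 of the probe sets, the brighter ones over all arrays, was tested with limma 3.58.1 in R 4.3.3 (lmFit and eBayes with an intensity trend), two-sided, with Benjamini-Hochberg adjustment over 22518 probe sets. Errors are the SE of the fit for differences and the SD for signals, and intervals are at 95%. The median SD within groups was 0.191 (log2) for tested and 0.863 for untested probe sets. Log2 ratios of 2 probe sets of a gene within arrays were tested with an exact two-sided permutation over arrays. The limma procedure was tested on simulated data.

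The 10 members and the gene lists were chosen with earlier results of these data known. Besides the pathway lists these were markers of perivascular and mesangial, myeloid, endothelial, kidney mesenchyme, mesenchymal and epithelial cells. Named were all members, Wt1, up to 4 called genes of each list by the size of their difference, not all of which are discussed, and neighbours of members that a list holds. Cd44, Des, Vim and Fn1 were also named, after their values were seen. Other settings tried were a replicate block, quantile normalization, centring on the median, 16 or 64 added before the logarithm, no filter or a share of 0.25, eBayes without trend, 1 probe set per gene, a threshold of 0.01 and leaving out arrays. The threshold of 0.01 was applied only to the counts of members and of all probe sets. The alternatives counted for single probe sets leave it out. Same-numbered arrays deviated together at correlations of -0.0617 to 0.0824, so the numbers were not taken to pair the samples. Protein sequences and the positions of probes on transcripts were not used here. Python 3.11.15 with matplotlib 3.10.9 drew the figures.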

Additional observations from a re-analysis of the deposited data

Results flagged for a closer look

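In 3 of 48 groups of 4 arrays, 1 array stood apart from the other 3 by more than Dixon's 95% critical value, and chance alone gives about 1 in 20 such groups, or 2.4 here. Control siRNA array 3 was high on Egfr probe set 1424932_at, at 4811 against 3887.9 for the next array. The same array was low on Egfr probe set 1451530_at, at 1023.4 against 2142.8 for the next. Control siRNA array 2 was high on Csf1r probe set 1419872_at, at 1718.6 against 1232.5. No explanation was tested for these values.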

How the results depend on the processing

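The number of members called stayed at 6 to 8 probe sets in all settings but 2. It was 4 with median centring, where the Ereg probe set and both Egfr calls were lost, and 5 with 1 probe set per gene, where fewer were tested. With the replicate block it was 7 and no member call changed, and the count over all tested probe sets went from 5194 to 4608 and over the pathway lists from 44 to 38. Leaving out each array in turn gave 6 for the members on every occasion, 3774 to 5763 over all probe sets and 30 to 46 over the lists. All probe sets called were 3395 with 1 probe set per gene and 2720 at a threshold of 0.01. Without control siRNA array 3 and Wt1 siRNA array 4, chosen after seeing the data, 8 members were called (1 higher, 7 lower), 6 of them among the 7 reported.

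Differences that changed sign were all of probe sets without a call in the reported fit. They were Hbegf 1418349_at with median centring (0.046) and Egfr 1432647_at without Wt1 siRNA array 2 (-0.50 to 0.049 over single arrays left out). Egfr 1451530_at ran from -0.22 to 0.16 over single arrays left out and was at -0.38 without the 2 arrays named above, where it was called lower (adjusted p = 0.0116). Pdgfb 1450414_at ran from -0.12 to 0.19 and was at -0.17 without these 2. Csf1r 1423593_a_at was at 0.032 under quantile normalization and 0.072 with median centring, and ran from -0.13 to 0.042 over single arrays left out. Settings were tried for at most 4 called genes of each other list. Of these, Erbb3, Pdgfrl, Plat, Acta2, Col1a2, Kdr, Krt18, Cbl, Hgs and Gpc6 lost their call at 0.05 in a setting that kept all arrays. So did 1 probe set each of Krt8, Src and Sdc4. At a threshold of 0.01 the calls of Rhbdf2, Shc1, Osr1, Notch3 and Adgre1 would be lost too (limma adjusted p = 0.0112 to 0.0244). So would those of Rnf41 1455763_at and Krt8 1420647_a_at (limma adjusted p = 0.0232 and 0.0227). The cause of these changes was not tested. Signals near the bacterial control probe sets limit what can be said of some genes. They were those of Pdgfra, Pdgfb, both Pdgfrb probe sets and the Egfr probe sets 1432647_at, 1454313_at and 1457563_at.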

Other observations

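Other marker lists read beside the members gave these values, beside 23.1% of all tested probe sets called. Of 6 tested kidney mesenchyme genes 1 rose and 2 fell, Wt1 itself being 1 of the falls, and 57.1% of 7 tested probe sets were called. Osr1, an early transcription factor gene of the kidney field, rose by 0.75 ± 0.19 (limma adjusted p = 0.0137), and Tbx18, a transcription factor gene of the stroma around the ureter, fell by 0.91 and 0.86 on its 2 probe sets (limma adjusted p = 0.00077 and 0.00501). Of 2 tested endothelial genes, with 20% of 5 probe sets called, 1 fell, Kdr, which encodes a VEGF receptor (-0.45 ± 0.11, limma adjusted p = 0.0122, and 0.098 with median centring). Of 5 tested epithelial genes 2 rose and 2 fell, and 71.4% of 7 tested probe sets were called. The fall of Krt18 was no longer called without any 1 of the 8 arrays (adjusted p = 0.0526 to 0.0899). Krt8, a keratin gene, rose on 2 of 3 probe sets (0.55 ± 0.15 and 0.42 ± 0.14, limma adjusted p = 0.0227 and 0.0494). The first Krt8 call was lost without Wt1 siRNA array 1 or 2 (adjusted p = 0.0501 to 0.0537). The second was kept without control array 3 and lost without any other array (adjusted p = 0.0638 to 0.129). Cdh1, the E-cadherin gene, rose by 0.95 ± 0.19 (limma adjusted p = 0.00352). Epcam fell by 2.10 on its 1 tested probe set, 1447899_x_at (SE 0.35; limma adjusted p = 0.00137). That probe set read 1588, 2102, 1227 and 4069 on control arrays and 568, 274, 647 and 488 on Wt1 siRNA arrays. The other, 1416579_a_at, lay on no array above the bacterial control probe sets. The fall of Epcam therefore rests on 1 probe set, and which transcripts its probes match was not analysed here.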
